A study of Mus musculus with 6 samples.

Results

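The genes described here copy DNA and supply its building blocks. The list held 42 genes: origin licensing factors, subunits of the replicative helicase and its activators, DNA polymerases with their primase, sliding clamp and clamp loader, enzymes that join the lagging strand, enzymes that make deoxynucleotides, chromatin and repair factors that act at forks, and regulators of the entry into S phase. A member was found by its gene symbol in the array's platform annotation, and where a gene had several transcript clusters (sets of probes for a gene's RNA) the one with the highest mean over all arrays was used. Of the 42 genes, 41 were measured, among 30142 genes in all. The only cluster of Mcm7 also lists the microRNA genes Mir93 and Mir25 that lie in it, so the level of Mcm7 was not analysed here.

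The cells were macrophages of epididymal fat from male C57BL/6J mice without any engineered allele named in the labels. Mice were fed a normal chow diet (NCD) or a high-fat diet with 60% fat (HFD) for 16 weeks from 6 weeks of age, so all were 22 weeks old. The stromal vascular fraction of collagenase-digested fat was passed over magnetic beads with an antibody (clone BM8) to F4/80, the macrophage surface antigen encoded by Adgre1. Each diet had 3 samples, written NCD1 to NCD3 and HFD1 to HFD3, with 20 mice in every NCD pool and 10 in every HFD pool. Pools were therefore the replicates, which leaves the spread between individual mice unknown. From each pool 100 ng of total RNA went onto 1 Affymetrix array. All levels below are log2 expression values, changes are the HFD mean minus the NCD mean on that scale, each with limma's standard error, and n = 3 arrays per diet throughout.

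Replication starts at origins, where the origin recognition complex together with Cdc6 and Cdt1 loads the MCM helicase onto DNA in G1. In S phase, Cdc45 and the GINS complex join the helicase and turn it on, DNA polymerase alpha and primase lay down primers, and polymerases epsilon and delta extend them while held by the PCNA clamp. Ribonucleotide reductase, thymidylate synthase and thymidine kinase supply the deoxynucleotides. Many of these genes are transcribed at the G1/S boundary under E2F transcription factors, which the retinoblastoma protein holds back until cyclin-dependent kinases release them. Macrophages in fat can divide locally, and their division in the fat of obese mice has been described. In bulk RNA of pooled cells, as here, fewer cells of a type and less RNA per cell cannot be told apart, so a higher level of an S-phase gene can be more cells in S phase or more RNA per cell.

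Promoters are shown because many of the group hold a sequence that the choice of the genes did not use. RefSeq promoter windows (GRCm38.p6, 250 bases before to 50 bases after each start) were found for 35 of the 42 genes. The E2F motif was searched on both strands as TTTCGCGC, TTTGGCGC, TTTCCCGC and TTTGCCGC. At least 1 match lay in the windows of 15 of the 35 genes (42.9%), against 704 of 27025 genes with a window in the table (2.6%). The windows of replication genes are also rich in GC boxes: GGGCGG lay in 26 of 35 (74.3%), against 38.2% of all genes. Among the genes with a GC box, 11 of 26 members (42.3%) and 498 of 10324 of all genes (4.8%) held the E2F motif. CCAAT was found in 60.0% of the members' windows and 41.1% of all genes. The cell cycle element of mitotic genes, searched as TTTGAA or TTCGAA, lay in 17.1% of members and 21.7% of all genes. A match is a run of letters in this window and does not show that a factor binds there.

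Mcm6, a subunit of the helicase whose level was among those that rose on HFD, had 3 matches in the 120 bases before its start (chr1:128359706-128359825, minus strand), at 110, 106 and 47 bases before the start, the first and second overlapping on opposite strands. The stretch is printed 5′ to 3′ on the gene's strand, with the matches in capitals.
Mcm6: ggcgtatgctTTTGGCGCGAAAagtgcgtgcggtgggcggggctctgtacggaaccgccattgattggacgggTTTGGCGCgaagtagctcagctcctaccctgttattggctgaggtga

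The next stretches of 30 bases show the match, again in capitals, in 7 other genes that were higher on HFD, so that the shared letters can be read off against each other. They come from chr8:122568035-122568064 (plus, Cdt1), chr4:126556990-126557019 (plus, Clspn), chr1:20820275-20820304 (minus, Mcm3), chr8:75109347-75109376 (plus, Mcm5), chr5:151651190-151651219 (minus, Rfc3), chr7:13278841-13278870 (plus, Lig1) and chr17:56304117-56304146 (plus, Uhrf1). A match on the opposite strand reads as its reverse complement. In Mcm5 a match and its opposite-strand neighbour overlap, and Rfc3 holds a match on each strand.
Cdt1: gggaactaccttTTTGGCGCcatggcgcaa
Clspn: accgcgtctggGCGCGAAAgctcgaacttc
Mcm3: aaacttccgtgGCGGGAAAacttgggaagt
Mcm5: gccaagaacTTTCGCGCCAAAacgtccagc
Rfc3: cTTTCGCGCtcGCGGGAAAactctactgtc
Lig1: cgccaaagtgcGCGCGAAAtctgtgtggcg
Uhrf1: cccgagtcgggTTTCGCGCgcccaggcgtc

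The same letters also stood near the start of genes whose change did not pass the test, shown for contrast: Orc1 (chr4:108579416-108579445, plus), Gins3 (chr8:95633507-95633536, plus) and Pold1 (chr7:44548766-44548795, minus). Of the genes with a window, a match was found in 11 of the 26 that rose and in 3 of the 8 that did not pass, so its presence did not separate them. Mcm7 also held a match but is in neither count, because its level was not analysed.
Orc1: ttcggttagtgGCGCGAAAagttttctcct
Gins3: gcgagtgcggcGCGGGAAAgcgagtttgaa
Pold1: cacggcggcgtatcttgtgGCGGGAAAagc

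Nearly the whole group was higher in cells from HFD mice. Of the 41 genes measured, 33 rose (80.5%), 0 fell and 8 did not pass the test, at an adjusted p below 0.05 by limma with Benjamini-Hochberg adjustment over all 30142 genes. Over all genes 4.96% rose and 2.87% fell, 7.83% in all. At an unadjusted p below 0.05, 39 members were higher and 0 lower, against 13.3% and 11.1% of all genes. The median change of the members was 0.94, against 0.01 over all genes, and the members ranged from −0.52 (Pola2, not passing the test) to 2.20 (Brca1). The rise was at least 2-fold for 16 members, against 1.97% of all genes, and at least 4-fold for Brca1 and Rrm2. In 40 of the 41 genes every HFD array lay above every NCD array, against 17.6% of all genes. The exception was Pola2. The group was chosen with earlier results of these data known, so these shares and medians describe it and are no test of it.

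**Figure D1:**
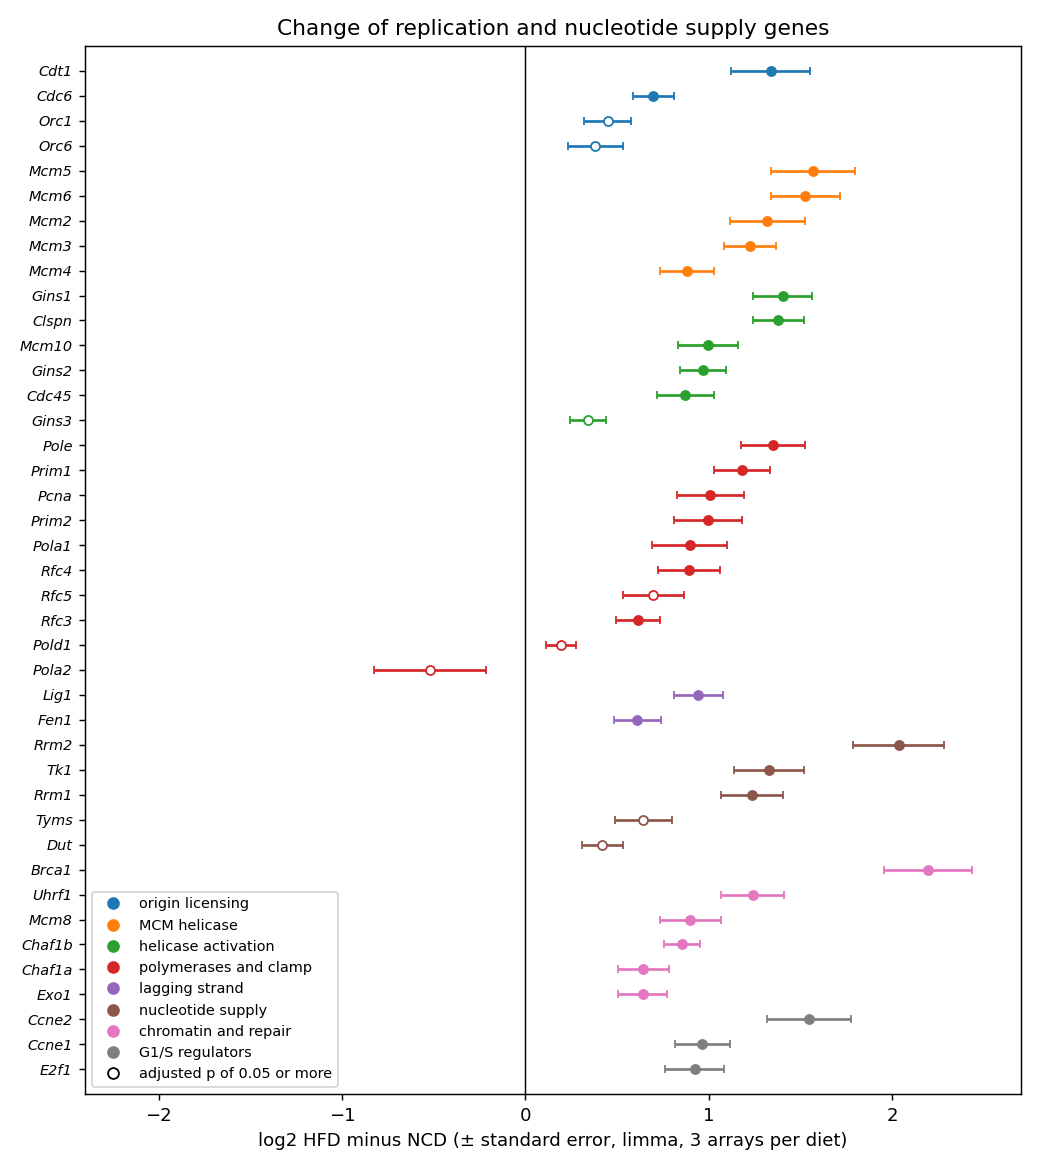
Change of each measured gene, as log2 HFD minus NCD (horizontal axis) with its standard error from limma, 3 arrays per diet, coloured by role; open circles mark genes that did not pass an adjusted p of 0.05. All points but Pola2 lie to the right of 0, and Brca1 (2.20) and Rrm2 (2.03) lie farthest right.

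The arrays of one diet differed among themselves, and the genes moved together in this. HFD3 held the highest value of all 6 arrays for 38 of the 41 genes. Within NCD, NCD1 was highest for 35 genes, while NCD3 was the lowest array of all for 23 genes and NCD2 for 13. The mean deviation of the 41 genes from each gene's mean was −0.34, −0.54 and −0.58 in NCD1 to NCD3 and 0.34, 0.39 and 0.72 in HFD1 to HFD3. The lowest HFD array thus lay 0.68 above the highest NCD array, more than the spread within the diets (SD 0.13 for NCD and 0.20 for HFD). The members' own spread was wider than that of other genes: their median SD was 0.181 in NCD and 0.213 in HFD, against 0.145 and 0.109 over all genes.

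**Figure D2:**
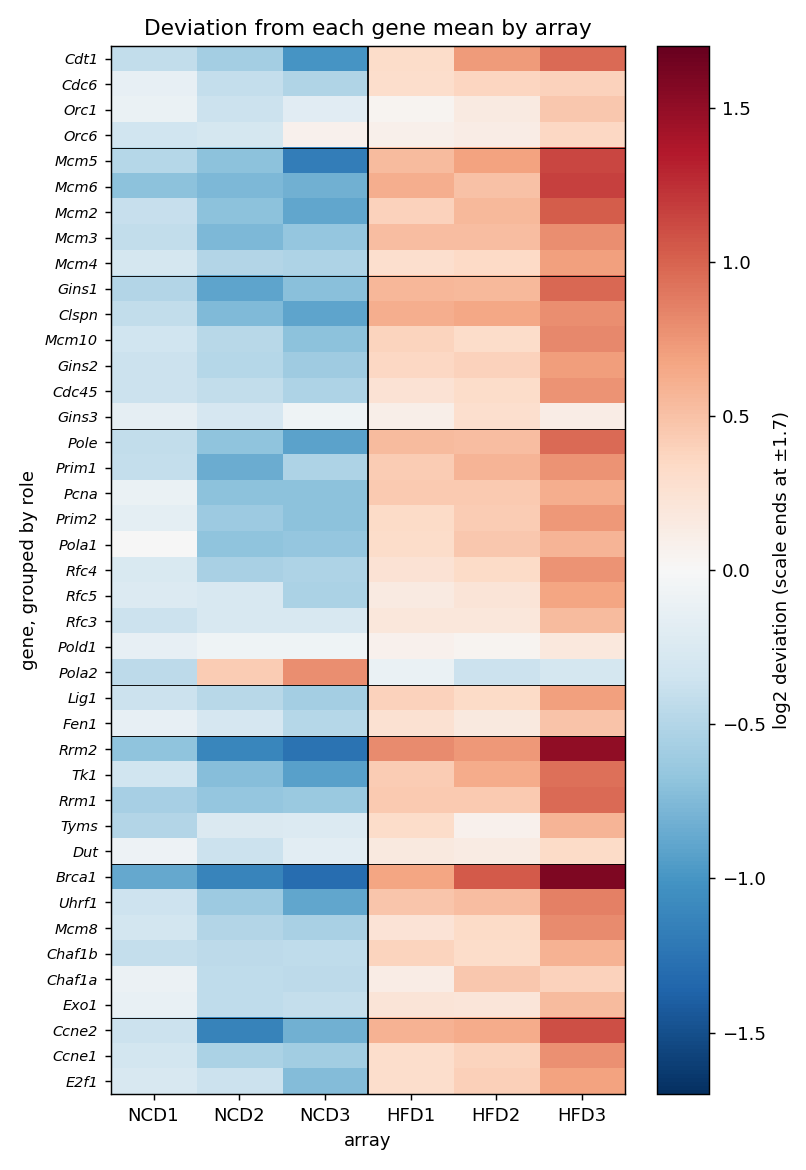
Deviation of each gene (rows, grouped by role) on each array (columns) from that gene's mean over the 6 arrays, in log2, red above and blue below. The 3 HFD columns are red and the 3 NCD columns blue in nearly every row, HFD3 is the darkest red in most rows, and in the row of Pola2 NCD2 and NCD3 are red and the other 4 arrays blue.

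Which genes passed depended on single arrays. When NCD1 was left out 35 members rose, against 7.96% of all genes. Dropping NCD2 left 7 members (1.05% of all genes), NCD3 23 (3.09%), HFD1 23 (2.33%), HFD2 11 (1.05%) and HFD3 12 (1.1%). With all arrays kept, 37 members rose under array weights (7.78% of all genes), 38 after median centring of the arrays (8.54%) and 36 of 40 when genes below the array background were dropped (11.9%). The count was 28 when p-values were adjusted over all transcript clusters, named or not (3.24% of the named genes), and 4 with the endothelial marker level as a covariate. Mcm3, Mcm6, Gins1, Clspn, Chaf1b and Brca1 passed without each array in turn. The other 27 lost their call in at least 1 of these fits. In 40 of the members every HFD array lay above every NCD array with all arrays kept. Leaving out an array could therefore not change their direction, and these fits are no check of it. Pola2 apart, the members' changes were positive without each array in turn, and for 40 of the members the HFD arrays lay above the NCD arrays in each of these fits. With 1 array fewer this was also more frequent over all genes, at 25.1%, 21.7% and 21.3% without NCD1, NCD2 and NCD3 and 23.6%, 21.5% and 20.1% without HFD1, HFD2 and HFD3.

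**Figure D3:**
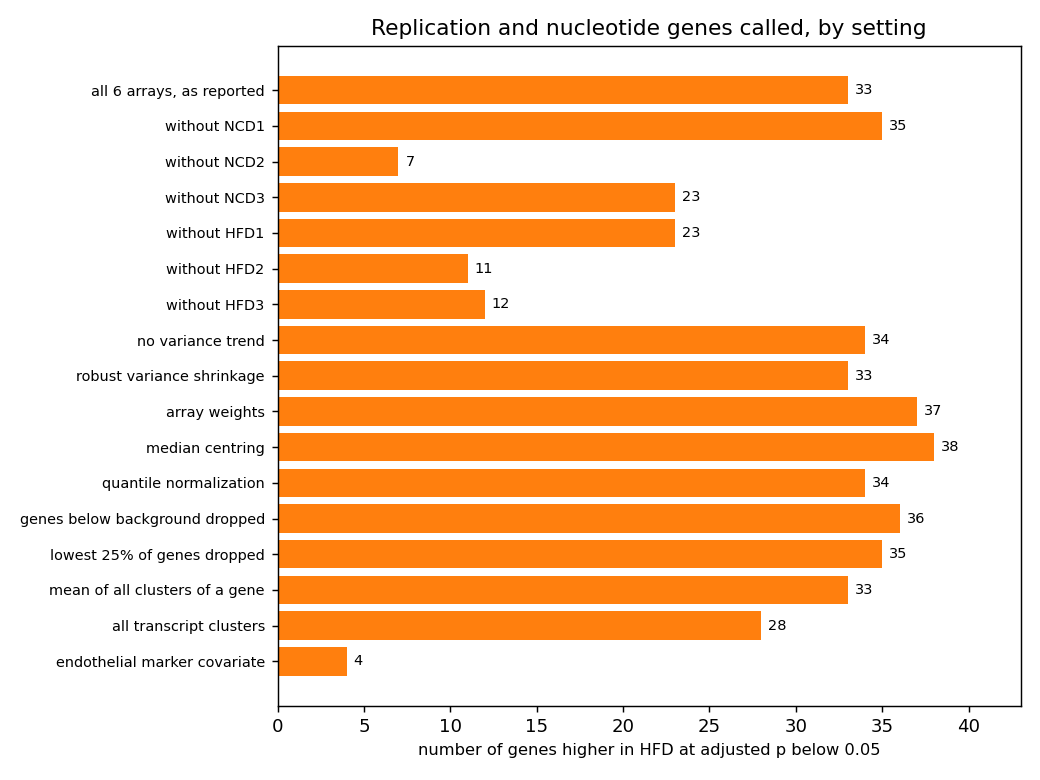
Number of the measured genes that were higher in HFD at an adjusted p below 0.05 (bars from 0) with all arrays, without each array in turn and under other processing choices. The count was 33 with all arrays, dropped to 7 when NCD2 was left out and to 11 or 12 when HFD2 or HFD3 was, and was 4 with the endothelial marker level as a covariate. The fit with the replicate number as a block, which called 0 members, is not drawn.

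The selected cells carried macrophage markers on every array. The mean level of the 9 macrophage markers measured of 11 listed was 14.30 to 15.10 in NCD and 15.10 to 15.26 in HFD. Of these markers 2 rose, 1 fell and 6 did not pass, with a median change of 0.18. Cd68 (1.20 ± 0.22, adjusted p = 0.0266) and the Fc receptor gene Fcgr1 (1.43 ± 0.21, adjusted p = 0.0150) rose, and Mertk fell by 0.49 (± 0.10, adjusted p = 0.0387). Adgre1 was among those that did not pass (0.91 ± 0.27, adjusted p = 0.0924). Cd68, Fcgr1 and Mertk were named after their values were seen. Markers of other cells had RNA levels that differed between arrays. The 9 endothelial markers measured of 10 had mean levels of 12.10 to 14.60 in NCD and 11.13 to 12.59 in HFD; 0 of 9 passed the test, with a median change of −1.90, and none had a mean below the array background of 6.23 log2 (from antigenomic control probes). Smooth muscle and pericyte markers (5 of 8 lower, 10.77 to 12.75 in NCD and 8.23 to 9.44 in HFD) and mesothelial markers (6 of 6 lower, 7.66 to 8.37 and 5.76 to 5.96) had lower means on HFD. Mast cell markers (4 of 6 higher, 6.06 to 6.22 and 6.86 to 7.48) and fibroblast and progenitor markers (5 of 8 higher, 8.67 to 9.19 and 9.45 to 10.05) had higher means. Of the latter, Dcn, Dpp4 and Pi16 did not pass and had lower means on HFD, as did Kit of the mast cell markers (−0.13). These genes were named after their values were seen. The mast cell means in NCD and the mesothelial means in HFD lay below the background level. Of the 10 T and NK cell markers measured, 7 were below background, among them Cd3d and Cd3e, and 1 of 10 fell. The 7 neutrophil markers averaged 8.82 to 9.37 in NCD and 7.44 to 10.48 in HFD, with HFD3 highest, the array that was also highest for most replication genes; 1 of 7 was lower (Mmp9) and 6 did not pass. The part of these other cells in the result was not tested. A fit with the endothelial level in the model is given next, but it cannot fully separate that level from diet.

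With the mean endothelial marker level of each array added to the model, all 41 changes were positive, from 0.21 to 1.72, with a median of 0.69 in place of 0.94. Only Mcm3 (adjusted p = 0.0448), Gins1 (0.0489), Clspn (0.0213) and Brca1 (0.0332) passed in this limma fit, against 1.0% of all genes called higher. At an unadjusted p below 0.05, 34 members were higher, against 7.4% of all genes.

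Of the 4 licensing factors, 2 rose and 2 did not pass, and differences between their changes were not tested. Cdt1, which brings the MCM helicase to the origin recognition complex, had levels of 7.18, 7.02 and 6.59 in NCD and 7.91, 8.33 and 8.57 in HFD. It rose 2.53-fold (1.34 ± 0.22, adjusted p = 0.0187), with means of 6.93 ± 0.31 and 8.27 ± 0.33 (SD, n = 3). Its partner Cdc6 went from 6.40 to 6.77 in NCD to 7.20 to 7.30 in HFD and rose 1.62-fold (0.70 ± 0.11, adjusted p = 0.0188). Both lost the call without NCD2, HFD2 or HFD3, and Cdc6 also without HFD1. The subunits of the origin recognition complex on the list did not pass. Orc1, its largest subunit, read 5.61, 5.35 and 5.52 in NCD and 5.77, 5.87 and 6.18 in HFD (0.45 ± 0.13, adjusted p = 0.0864), below the background level on every array. Orc6, its smallest subunit, read 8.72, 8.77 and 9.14 in NCD and 9.16, 9.20 and 9.42 in HFD (0.38 ± 0.15, adjusted p = 0.182), a gap of only 0.02 between the nearest arrays of the diets.

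All 5 MCM subunits measured rose. Mcm5 read 8.65, 8.45 and 7.97 in NCD and 9.68, 9.83 and 10.28 in HFD, a 2.96-fold rise (1.57 ± 0.23, adjusted p = 0.0140). Mcm3 read 9.62, 9.27 and 9.38 in NCD and 10.56, 10.56 and 10.83 in HFD, a 2.34-fold rise (1.23 ± 0.14, adjusted p = 0.00797). For both, the gap between the nearest arrays of the diets was over 0.9. Mcm6 was at 9.90 to 10.01 in NCD and 11.22 to 11.88 in HFD (1.53 ± 0.19, adjusted p = 0.00924), Mcm2 at 7.84 to 8.33 and 9.13 to 9.76 (1.32 ± 0.20, adjusted p = 0.0164) and Mcm4 at 9.76 to 9.97 and 10.56 to 10.97 (0.88 ± 0.15, adjusted p = 0.0200). The median of the 5 genes was 1.32. Mcm3 and Mcm6 passed without each array in turn, while Mcm2, Mcm4 and Mcm5 did not pass without NCD2, HFD2 or HFD3.

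Of the 6 genes that turn the helicase on or work beside it, 5 rose. Gins1, a subunit of the GINS complex, read 7.31, 6.91 and 7.08 in NCD and 8.37, 8.36 and 8.78 in HFD and rose 2.65-fold (1.40 ± 0.16, adjusted p = 0.00788). Clspn, the fork protein claspin that also passes on checkpoint signals, read 7.31, 6.98 and 6.83 in NCD and 8.36, 8.39 and 8.52 in HFD. Its rise of 2.60-fold (1.38 ± 0.14) had the smallest adjusted p of the whole group, 0.0063. For both genes all HFD arrays lay more than 1 log2 unit above all NCD arrays. Mcm10, which helps to start the loaded helicase, rose 2.00-fold (6.34 to 6.69 in NCD and 7.34 to 7.84 in HFD, adjusted p = 0.0191), Gins2 rose 1.96-fold (6.79 to 7.03 and 7.75 to 8.10, adjusted p = 0.0108) and Cdc45, the helicase cofactor, rose 1.83-fold (7.49 to 7.63 and 8.24 to 8.76, adjusted p = 0.0237). Gins3, another GINS subunit, read 7.06, 6.93 and 7.14 in NCD and 7.31, 7.50 and 7.33 in HFD and did not pass (0.34 ± 0.10, adjusted p = 0.0923). Differences between the changes of the GINS subunits were not tested. Gins1 and Clspn passed without each array in turn, Gins2 lost the call without NCD2, Mcm10 without NCD2, HFD2 or HFD3, and Cdc45 also without NCD3.

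Of the 10 polymerase, primase, clamp and clamp-loader genes, 7 rose and 3 did not pass, with a median of 0.89. Pole, the catalytic subunit of the leading-strand polymerase epsilon, read 7.24, 6.98 and 6.75 in NCD and 8.20, 8.19 and 8.63 in HFD and rose 2.55-fold (1.35 ± 0.18, adjusted p = 0.0107). Prim1, the catalytic primase subunit, read 7.98, 7.54 and 7.85 in NCD and 8.82, 8.96 and 9.14 in HFD and rose 2.27-fold (1.18 ± 0.15, adjusted p = 0.0103). In both genes the diets were separated by more than 0.8. The other primase subunit Prim2 (9.44 to 9.98 in NCD, 10.47 to 10.89 in HFD) rose 1.99-fold (adjusted p = 0.0280), and Pola1, the catalytic subunit of polymerase alpha (9.16 to 9.83 and 10.15 to 10.42), rose 1.86-fold (adjusted p = 0.0479). Pcna, the sliding clamp, was at 12.48 to 13.07 in NCD and 13.63 to 13.81 in HFD and rose 2.01-fold (1.01 ± 0.18, adjusted p = 0.0256). Of the clamp loader, Rfc4 (8.56 to 8.85 and 9.37 to 9.88) rose 1.85-fold (adjusted p = 0.0284) and Rfc3 (6.83 to 6.92 and 7.39 to 7.74) rose 1.53-fold (adjusted p = 0.0300).

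The calls of this role rested on many of the arrays: 1 of the 10 passed as higher without NCD2, HFD2 or HFD3, 2 without NCD3 or HFD1 and 8 without NCD1. Calls over all genes moved in the same order. Of all genes, 1.05% rose without NCD2 or HFD2, 1.1% without HFD3, 2.33% without HFD1, 3.09% without NCD3 and 7.96% without NCD1. Pole lost its call without NCD2, Prim1 without HFD2 or HFD3, and the others without each array other than NCD1. The clamp-loader gene Rfc5 read 7.92, 7.89 and 7.63 in NCD and 8.32, 8.38 and 8.84 in HFD and missed the threshold (0.70 ± 0.17, adjusted p = 0.0560). Pold1, the catalytic subunit of the lagging-strand polymerase delta, read 7.21, 7.26 and 7.26 in NCD and 7.41, 7.38 and 7.52 in HFD (0.19 ± 0.08, adjusted p = 0.214). Its change was small beside that of Pole, although its diets did not overlap either; the difference between the changes of these genes was not tested.

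Pola2, the regulatory subunit of polymerase alpha, was the one gene of the group whose mean was lower on HFD. It read 9.03, 9.90 and 10.26 in NCD and 9.35, 9.11 and 9.17 in HFD, with a change of −0.52 ± 0.30 (adjusted p = 0.359). NCD2 and NCD3 stood above the other 4 arrays, and NCD1 was the lowest of all, so the diets overlapped. Without NCD1 the gene was called lower (−0.87). The order of the arrays was near that of the endothelial markers, whose mean deviation was −0.52, 1.48 and 1.99 in NCD1 to NCD3 and −0.03, −1.45 and −1.49 in HFD1 to HFD3, and with that level in the model the change of Pola2 was 0.23. The coding gene before Pola2 in the RefSeq order, Cdc42ep2, which encodes an effector of the GTPase Cdc42, also read highest on NCD2 and NCD3, with 6.39, 7.14 and 7.37 in NCD and 6.12, 6.08 and 5.61 in HFD (−1.03 ± 0.27, adjusted p = 0.0714). Unlike in Pola2, its NCD1 value lay above all HFD arrays, whose values were below the background level. The gene after it, Slc22a20, was below the background level on all arrays. Both neighbours were named after their values were seen. The part of endothelial RNA or of the neighbouring gene in the signal of this cluster was not tested.

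Both genes of lagging-strand maturation rose. Lig1, the ligase that seals Okazaki fragments, read 8.09, 7.98 and 7.88 in NCD and 8.85, 8.78 and 9.16 in HFD, a 1.92-fold rise (0.94 ± 0.13, adjusted p = 0.0129). Fen1, the nuclease that trims the flaps between the fragments, was at 6.28 to 6.62 in NCD and 6.93 to 7.25 in HFD and rose 1.53-fold (0.61 ± 0.13, adjusted p = 0.0380). Lig1 lost its call without NCD2, and Fen1 kept its call only when NCD1 was the array left out.

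In nucleotide supply, the reductase and the thymidine kinase rose while thymidylate synthase and dUTPase did not pass. Rrm2, the S-phase subunit of ribonucleotide reductase, which makes deoxynucleotides from ribonucleotides, read 8.10, 7.68 and 7.54 in NCD and 9.59, 9.53 and 10.29 in HFD. It rose 4.10-fold (2.03 ± 0.25, adjusted p = 0.00906), with means of 7.77 ± 0.29 and 9.80 ± 0.42 (SD, n = 3), and HFD3 stood 0.7 above HFD1. The large subunit Rrm1 (10.68 to 10.77 in NCD and 11.78 to 12.31 in HFD) rose 2.36-fold (1.24 ± 0.17, adjusted p = 0.0117). Tk1, the cytosolic thymidine kinase of the salvage route (6.78 to 7.37 and 8.14 to 8.64), rose 2.51-fold (1.33 ± 0.19, adjusted p = 0.0138).

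Tyms, which methylates dUMP to make thymidylate, read 7.81, 8.06 and 8.07 in NCD and 8.61, 8.38 and 8.88 in HFD (0.64 ± 0.15, adjusted p = 0.0559). Dut, which removes dUTP and so keeps uracil out of DNA, read 7.86, 7.58 and 7.76 in NCD and 8.10, 8.08 and 8.27 in HFD (0.42 ± 0.11, adjusted p = 0.0747). Neither overlapped between diets, and in Tyms NCD1 was the lowest array, unlike in most of the group. Rrm1 and Rrm2 lost the call without NCD2, and Tk1 without NCD2, HFD2 or HFD3. Rrm2b, the reductase subunit that serves cells outside S phase, did not pass (−0.21 ± 0.13, adjusted p = 0.370), nor did Samhd1, the enzyme that breaks down deoxynucleotides in resting myeloid cells (−0.10 ± 0.13, adjusted p = 0.726).

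All 6 chromatin and repair genes rose. Brca1, which protects stalled forks and acts in repair by recombination, had the largest change of the group. It read 6.91, 6.65 and 6.48 in NCD and 8.45, 8.82 and 9.37 in HFD, a 4.58-fold rise (2.20 ± 0.24, adjusted p = 0.00734) with means of 6.68 ± 0.21 and 8.88 ± 0.46 (SD, n = 3). Every HFD array was more than 1.5 above every NCD array. Uhrf1, which brings the maintenance DNA methyltransferase to newly copied DNA, rose 2.36-fold (6.85 to 7.38 in NCD and 8.21 to 8.60 in HFD, adjusted p = 0.0120). The chromatin assembly factor subunits on the list, which place histones behind the fork, both rose. The rise was 1.81-fold for Chaf1b (6.92 to 6.96 and 7.67 to 7.95, adjusted p = 0.00821) and 1.56-fold for Chaf1a (7.09 to 7.43 and 7.65 to 7.98, adjusted p = 0.0432). The difference between these changes was not tested. Mcm8, an MCM relative that acts in recombination, rose 1.87-fold (6.62 to 6.85 and 7.39 to 7.96, adjusted p = 0.0265), and the nuclease gene Exo1 rose 1.56-fold (6.25 to 6.56 and 6.89 to 7.21, adjusted p = 0.0374). Brca1 and Chaf1b passed without each array in turn, while Chaf1a and Exo1 passed only when NCD1 was the array left out. Uhrf1 lost its call without NCD2, HFD2 or HFD3, and Mcm8 also without NCD3.

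The regulators of the G1/S step on the list rose as well. Ccne2, one of the E cyclins that activate Cdk2 at the start of S phase, read 7.81, 7.04 and 7.36 in NCD and 8.77, 8.80 and 9.27 in HFD, a 2.92-fold rise (1.55 ± 0.23, adjusted p = 0.0147). Its relative Ccne1 (6.38 to 6.66 in NCD and 7.27 to 7.75 in HFD) rose 1.95-fold (0.96 ± 0.15, adjusted p = 0.0169), and E2f1, an activating E2F factor (7.09 to 7.55 and 8.13 to 8.51), rose 1.90-fold (0.92 ± 0.16, adjusted p = 0.0235). Without NCD2 or HFD2 all 3 lost the call, without HFD3 only Ccne1 kept it, and E2f1 also lost it without HFD1.

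Replication factors outside the group had a smaller median change than the group. The group and this list were chosen with earlier results of these data known, and the difference was not tested. Of 35 measured of 37 listed, 12 rose (34.3%, against 4.96% of all genes), 0 fell and 23 did not pass, with a median of 0.41. Without a single array 1 (HFD2) to 14 (NCD1) rose, against 1.05% and 7.96% of all genes. Pclaf, which encodes a PCNA-binding protein, rose 3.29-fold (1.72 ± 0.20, adjusted p = 0.00846) and passed without each array in turn. Gmnn, the inhibitor of Cdt1 (1.22 ± 0.16, adjusted p = 0.0112), Wdhd1, which links polymerase alpha to the helicase (1.17, adjusted p = 0.0262), and Dbf4, the activator of the Cdc7 kinase (1.15, adjusted p = 0.0176), also rose. Other subunits of the same complexes, named after their values were seen, had smaller changes. Orc2 was at 0.28 (adjusted p = 0.198), Orc3 at 0.07 (0.733) and Orc4 at 0.01 (0.971), and the single-strand binding protein genes were at 0.22 for Rpa1 (0.261), 0.34 for Rpa2 (0.173) and 0.14 for Rpa3 (0.463). Of these, Orc4 was below 0 with quantile normalization (−0.003) and in some fits without an array. Pole2, the accessory subunit of polymerase epsilon, rose with Pole (0.93 ± 0.11, adjusted p = 0.00871).

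Other nucleotide genes had low median changes. Of 17 deoxynucleotide and folate genes measured of 18, 4 rose (23.5%, against 4.96% of all genes), 0 fell and 13 did not pass. Their median was 0.16. Those that rose were Dck, the deoxycytidine kinase (1.08 ± 0.23, adjusted p = 0.0409), Cmpk1 (0.90, adjusted p = 0.0236) and Nme1 (0.73, adjusted p = 0.0198), nucleotide kinases, and Mthfd1, a folate enzyme (0.65, adjusted p = 0.0385). Of 16 genes of purine and pyrimidine synthesis measured of 18, 2 rose (12.5%) and 14 did not pass, with a median of 0.20. These were Umps, which makes UMP (1.05, adjusted p = 0.0216), and Adssl1, an adenylosuccinate synthase gene (1.28, adjusted p = 0.0387). Without NCD1, 6 genes of each set rose (7.96% of all genes) and 1 of the former fell. No call was left in either without NCD2, HFD2 or HFD3, where 1.05%, 1.05% and 1.1% of all genes rose.

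Among 24 measured genes of the E2F, retinoblastoma and G1/S cyclin network, 8 rose (33.3%), 2 fell and 14 did not pass, with a median of 0.31. Over all genes 4.96% rose and 2.87% fell. Cdk6, a kinase that D cyclins activate to release E2F, read 10.27, 10.15 and 10.01 in NCD and 11.86, 12.09 and 12.04 in HFD. It rose 3.62-fold (1.86 ± 0.13, adjusted p = 0.00208) and passed without each array in turn. Ccna2, the S-phase and G2 cyclin, rose 4.92-fold (2.30 ± 0.28, adjusted p = 0.00925), and Skp2, which marks the inhibitor p27 for destruction, rose by 1.25 ± 0.17 (adjusted p = 0.0114). E2f3, an activating factor (0.83 ± 0.10, adjusted p = 0.00927), and E2f8, a repressing one (1.23 ± 0.17, adjusted p = 0.0119), rose with E2f1, both named after their values were seen. Rb1, the retinoblastoma gene, did not pass (−0.17, adjusted p = 0.384).

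The D cyclins went the other way from the E cyclins. Ccnd2 read 11.12, 11.36 and 12.31 in NCD and 9.96, 9.88 and 9.31 in HFD, 3.69-fold lower (−1.88 ± 0.34, adjusted p = 0.0248), with no overlap between diets. Ccnd3 fell by 0.53 (± 0.10, adjusted p = 0.0293). Ccnd2 lost its call without NCD2 or any HFD array, Ccnd3 without each array other than NCD1, and with the endothelial level in the model 0 genes of this network were called lower. Ccnd1 was not analysed here. The network's count of higher genes was 9 without NCD1 (7.96% of all genes) and 2 without NCD2 (1.05%) or HFD3 (1.1%).

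Inhibitors of cyclin-dependent kinases and p53 targets showed no common direction. Of 15 measured of 16, 1 rose (6.7%), 1 fell and 13 did not pass, with a median of 0.06. Over all genes 4.96% rose and 2.87% fell. Cdkn1a, which encodes p21, was at 0.06 ± 0.20 (adjusted p = 0.906) and Cdkn1b, which encodes p27, at −0.35 (adjusted p = 0.260). Cdkn1a was below 0 without NCD1 (−0.16) and with array weights (−0.09), so no direction is given for it. Cdkn2c, which encodes p18, an inhibitor of Cdk4 and Cdk6, rose (0.72 ± 0.13, adjusted p = 0.0235). Btg2, an antiproliferative gene induced by p53, was 3.04-fold lower on HFD (−1.60 ± 0.19, adjusted p = 0.00862) and was called without each array in turn. Without an array, 0 to 3 genes of this list rose, against 1.05% to 7.96% of all genes.

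Of the genes that protect and repair forks, 28 were measured of 33. Of these 13 rose (46.4%, against 4.96% of all genes), 0 fell and 15 did not pass, with a median of 0.54. Zranb3, an enzyme that remodels stalled forks, had a far larger change than any other gene of this list: 7.29, 7.04 and 7.16 in NCD and 11.13, 10.74 and 11.26 in HFD, a 14.7-fold rise (3.88 ± 0.16, adjusted p = 0.000619). Parpbp, which limits recombination (1.62, adjusted p = 0.0133), Rad54l, a recombination motor protein (1.30, adjusted p = 0.0111), and Fanci, of the crosslink repair pathway (1.19, adjusted p = 0.0167), also rose. The count was 16 without NCD1 (7.96% of all genes) and 1 without NCD2 (1.05%). Of the 9 histone chaperone and maintenance methylation genes, 3 rose (33.3%, against 4.96% of all genes) and 6 did not pass, with a median of 0.31. Dnmt1, the maintenance methyltransferase that Uhrf1 recruits, rose by 1.09 ± 0.13 (adjusted p = 0.00826), Hells, a chromatin remodeller, by 1.31 (adjusted p = 0.0135) and Asf1b, a histone chaperone, by 1.24 (adjusted p = 0.0370). The count was 5 without NCD1 (7.96% of all genes) and 0 without HFD2 (1.05%).

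Mitosis genes, which act after replication, changed more than the group in these arrays. Of 31 measured of 32, 29 rose (93.5%, against 4.96% of all genes), 0 fell and 2 did not pass. Their median was 1.91, against 0.94 for replication and nucleotide supply, and the difference of these medians was not tested. Ccnb2, a mitotic cyclin, rose by 2.60 ± 0.34 (adjusted p = 0.0108), Hmmr, a spindle protein gene, by 2.54 (0.0114), Cenpe, a kinetochore motor, by 2.48 (0.0135) and Top2a, which untangles copied DNA, by 2.27 ± 0.31 (0.0119). Mki67, the proliferation marker of the antigen Ki-67, rose by 2.36 ± 0.45 (adjusted p = 0.0288). Mean deviations by array were −0.50, −0.98 and −1.26 in NCD and 0.70, 0.68 and 1.35 in HFD, so HFD3 was highest and NCD3 lowest, as for the replication genes. The count of mitosis genes that rose was 4 without NCD2 (1.05% of all genes), 16 without HFD2 (1.05%) and 31 without NCD1 (7.96%).

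**Figure D4:**
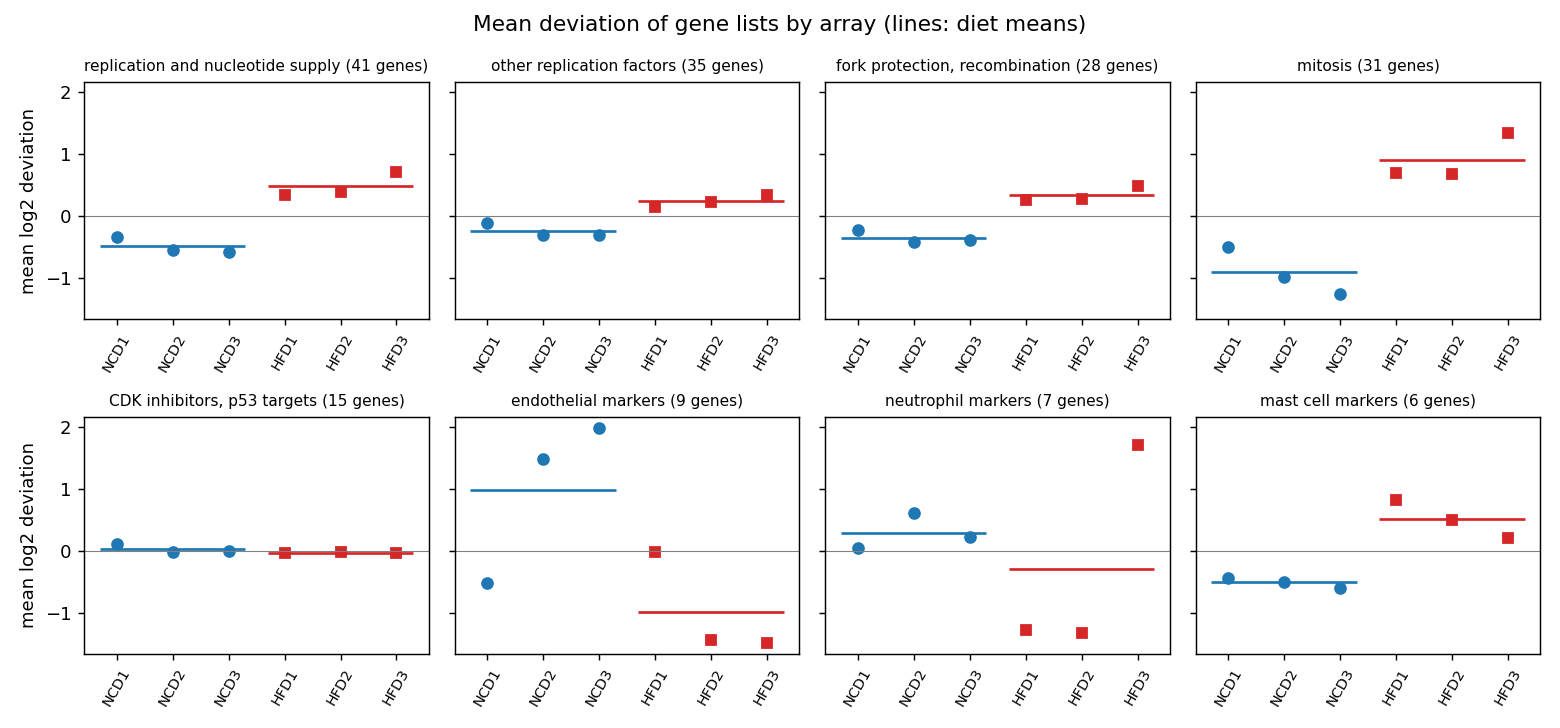
Mean log2 deviation of the genes of each list from their means (vertical axis) on each array: circles for NCD and squares for HFD, with lines at the diet means. Replication, fork protection and mitosis lists are higher on all HFD arrays; endothelial markers vary within NCD from −0.52 to 1.99, and neutrophil markers within HFD from −1.33 to 1.72.

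Precision was set by having 3 arrays per diet: limma's standard error of a change had a median of 0.162 for the members and 0.118 over all genes. Nothing in the labels says that the pools of a diet came from separate feeding experiments, so the p-values measure the spread between these pools.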

How the data were processed

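The authors deposited log2 expression values per transcript cluster for 6 arrays. RMA is named in the submitters' processing notes, beside the programs Transcriptome Analysis Console 3.1.0.5 and Affymetrix Expression Console 1.4.1.46; RMA options and the genome build are not given in the sources used here. RMA summarises the probes of a cluster after quantile normalization, which can hide a shift shared by all genes. Column medians were 5.95 to 6.03. After 6732 control probe sets were left out, 65956 clusters remained, 30604 of them with 1 gene symbol; 827 of these clusters received a current symbol by Entrez identifier. Keeping 1 cluster per gene gave 30142 genes, dim genes included. The 95th percentile of 23 antigenomic probe sets, 6.23 log2, served as background; 14395 genes had a lower mean.

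Diets were compared with limma 3.58.1 in R 4.3.3 (lmFit, eBayes with a variance trend, 2.64 prior degrees of freedom; two-sided; Benjamini-Hochberg over all genes; called at adjusted p below 0.05). The genes of the group and all other lists were chosen with earlier results of these data known, so counts and medians describe them and no list was tested. Array values were given in full for the member with the smallest p and the one with the largest change in each role and for members not called; in other lists at most the 4 largest called changes, called genes against the majority, and genes fixed by name (Zranb3, Rrm2b, Samhd1, Cdkn1a, Cdkn1b, Cdkn2c, Ccnd2, Ccnd3, Mki67, Top2a, Dnmt1, Gmnn, Rb1, Adgre1) were named, and at most 3 markers per cell type. Other cell types on the marker lists gave 0 of 5 monocyte, 0 of 6 B and plasma cell, 0 of 5 adipocyte and 0 of 3 erythroid genes called, 1 of 7 dendritic genes lower and 1 of 6 eosinophil genes higher.

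Alternatives were each array left out, the replicate number as a block, no variance trend, robust shrinkage, array weights, median centring, quantile normalization, 2 filters on dim genes, the mean of a gene's clusters, all clusters, the endothelial marker level as a covariate, and narrower and wider E2F motifs. On simulated data (5 runs of 30142 genes, 200 changed, 3 arrays against 3) 2-fold changes were found in 66.8% of cases and 4-fold changes in 91.4%, none of them (0) in the wrong direction. False calls averaged 8.6 per run. Noise was drawn separately for each gene, whereas the members moved together on these arrays. Far fewer genes were changed than the 2359 called here. These rates therefore need not hold for these data.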

Additional observations from a re-analysis of the deposited data

How the results depend on the processing

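With all arrays 2359 genes were called, 1494 higher and 865 lower on HFD, 33 members among those higher. Leaving out each array in turn gave 442 to 4713 genes (316 to 2399 higher, 124 to 2314 lower), 7 to 35 members higher and 0 to 1 lower. Without NCD1 most counts rose and without NCD2, HFD2 or HFD3 they fell; fewer arrays were fitted, and beyond that the cause was not tested. Array weights gave 4282 genes (2345 higher, 1937 lower) and 37 members; median centring, which moves the median change of all genes from 0.01 to 0.10, gave 2573 higher and 693 lower, and 38 members. With the endothelial covariate 660 genes were called (302 higher, 358 lower), 4 members among them, with a median change of 0.69. The deviations of same-numbered pools from their diet's mean correlated at −0.46, −0.12 and −0.15, and those of other pairs at −0.30 to 0.40. Deviations of 3 arrays sum to 0 within a diet, which ties these correlations to each other. They therefore cannot decide whether pools with the same number belong together. With the replicate block limma called 144 genes (90 higher, 0.299% of all, and 54 lower) and 0 members, and 39 members were higher at an unadjusted p below 0.05, against 10.7% of all genes. Under the other settings 28 to 36 members were called. The E2F motif lay in 34.3% of members' windows in its narrow form (0.9% of all genes) and 65.7% as its 7-base core (10.9% of all genes).

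Among the genes whose change the text gives, those that turned sign under a setting were Pola2 (0.23 with the endothelial covariate), Orc4 (−0.003 with quantile normalization, −0.092 with the covariate, and −0.093 to 0.1 over the fits without an array) and Cdkn1a (−0.089 with array weights, and −0.162 to 0.222 over the fits without an array); the cause was not tested.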
